A study of Mus musculus with 15 samples.

Results

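The genes of oxidative phosphorylation encode the subunits of the respiratory chain complexes I to IV, the ATP synthase (complex V) and, among the symbols taken, several of their assembly factors. The members were chosen by symbol: protein-coding mouse genes of the GENCODE M21 annotation whose symbols start with Nduf, Sdha to Sdhd, Uqcr, Cox4 to Cox8 or Atp5, or name a mitochondrially encoded subunit, together with Cyc1. This gave 112 of the 55266 genes in the count tables, 99 of them in the nucleus and 13 on mitochondrial DNA. RNA was sequenced from NIH3T3 cells, an established line of mouse fibroblasts, after poly(A) selection. The cells were stable lines in which doxycycline induces histone H2A fused either to TerminaTOR, a genetically encoded inhibitor that the series design describes as acting on nuclear mTORC1, or to the fluorescent protein mCherry as the control, and all were starved before treatment. The 5 groups of 3 libraries were H2A-mCherry cells given rapamycin and PDGF, H2A-TerminaTOR cells given cycloheximide and PDGF, H2A-mCherry cells given cycloheximide and PDGF, H2A-mCherry cells given PDGF, and H2A-mCherry cells without PDGF. TerminaTOR was thus measured only in the presence of cycloheximide, and the sources used here give neither doses nor times, nor whether a line is a single clone. Separate cultures are not stated for the 3 libraries of a group, so a p-value measures only the spread between these libraries, which may be technical.

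Oxidative phosphorylation is carried out by complexes built from subunits of 2 genomes: most are made in the cytosol from nuclear genes and imported, and a small set is transcribed from mitochondrial DNA as long polycistronic RNAs and translated on mitochondrial ribosomes. Nuclear members are known to depend on the factors NRF1, GABPA (an ETS factor) and YY1 and on the coactivator PGC-1α, and mTORC1, a kinase complex that responds to growth factors and amino acids, is known to promote mitochondrial gene expression through YY1 and PGC-1α and through translation. Rapamycin inhibits mTORC1, cycloheximide blocks translation on cytosolic but not on mitochondrial ribosomes, and PDGF is a growth factor for fibroblasts.

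Reads were few for many nuclear members. Counts were deposited per transcript with HTSeq, per the submitters' processing notes, whose default drops a read that falls on several features. The setting used is not stated, but under that default a gene's sum rests on bases specific to 1 transcript. Of the 99 nuclear members 48 had enough reads to be tested, 7 had no read in any library, and none of the 8 Ndufaf assembly factors of complex I was tested. The 10 nuclear members with the most reads held 80.4% of all nuclear member reads, led by Uqcrfs1 (the Rieske iron-sulfur protein of complex III) with 14050 reads over the 15 libraries, Sdhd (the small membrane anchor of succinate dehydrogenase) with 9767 and Ndufb11 (a membrane-arm subunit of complex I) with 9685. Of the nuclear members 14 have 1 annotated transcript, 9 of these were tested, and their sums cannot shift with isoform use. Among the members with several transcripts, 26.3% of reads lay on retained-intron transcripts and 61.8% on protein-coding ones. The sources used here do not state whether strand was kept, so antisense reads cannot be told apart from a gene's own; this touches mt-Nd6, which lies opposite the other members.

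Several mitochondrially encoded members have near-identical nuclear copies. Nearly all 50-base words of mt-Co2 (100%), mt-Co3 (99.9%), mt-Atp6 (99.5%), mt-Nd4l (98.8%) and mt-Nd3 (98%) also occur in another annotated gene. For each of these the main match is a pseudogene on chromosome 1. The share in any other annotated gene was 62.2% for mt-Nd4, 51.1% for mt-Co1, 8.19% for mt-Nd2 and 7.61% for mt-Nd5. It was 0% for mt-Nd1, mt-Nd6 and mt-Cytb. The first 60 bases of mt-Co3, which encodes a core subunit of cytochrome c oxidase, and of its copy Gm28437 are shown to make the likeness visible (GENCODE M21, build GRCm38). The 783 bases that the genes share hold 0 mismatches, so the stretch has no capital letter.
mt-Co3, chrM:8607-8666, plus strand: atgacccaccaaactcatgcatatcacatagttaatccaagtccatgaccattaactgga
Gm28437, chr1:24613912-24613971, minus strand: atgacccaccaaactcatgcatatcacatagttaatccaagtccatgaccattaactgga
The copy was given 4088 reads over the 15 libraries and mt-Co3 itself 10949, and for mt-Nd3 the copy Gm28438 had more reads (2875) than the mitochondrial gene (585). In the PDGF libraries mt-Co1 reached 20600 ± 631 CPM per kb (read counts relative to library totals scaled by the TMM method, per kilobase of transcript-specific sequence; SD, n = 3), against 404 ± 34.4 for mt-Co2, 188 ± 11.9 for mt-Co3 and 9.21 ± 4.38 for mt-Nd4l. The levels of these 5 shared members are therefore uncertain, and counts over all 12 tested members below include them. The last member, mt-Atp8, had 6 reads in all and was not tested, although 0% of its 50-base words occur in another annotated gene. The search covered annotated genes only, so copies elsewhere in the genome would not be seen. The reason for the low count was not tested.

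**Figure D1:**
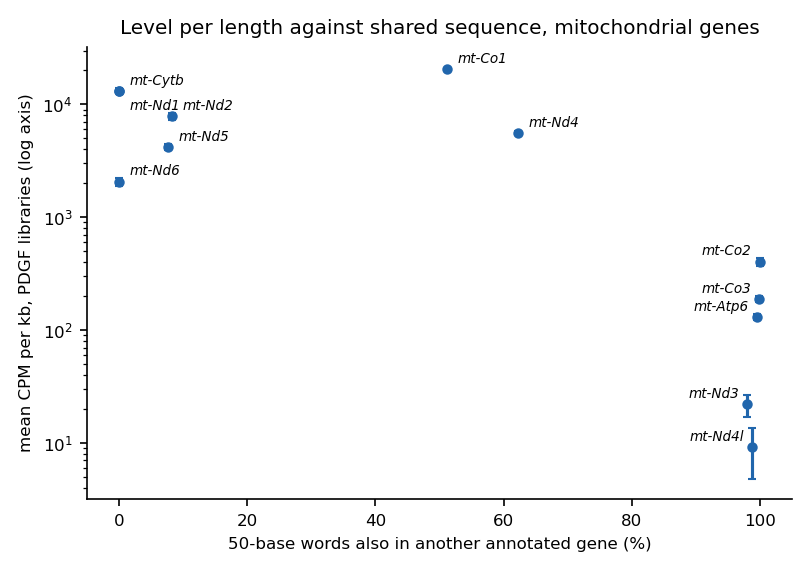
Mean level of 12 mitochondrially encoded members in the H2A-mCherry PDGF libraries (CPM per kb of transcript-specific sequence, log axis; bars are SD, n = 3) against the percentage of their 50-base words found in another annotated gene. The member mt-Atp8, at 0 CPM in these libraries and with 0% of such words, is left out. The 5 members at 98% or more lie at 404 CPM per kb or below, and the 7 others at 2070 or above.

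Promoter windows of RefSeq (build GRCm38.p6; 250 bases before to 50 after the start) were found for 78 of the 98 symbols of the nuclear members, 83 windows in all. On either strand, the NRF1 motif TGCGCANGC occurred in 19.3% of the member windows, against 4.16% of all 32851 windows, and its form TGCGCATGC, which is contained in the first, in 7.23% against 1.52%. The ETS motif CCGGAAG occurred in 25.3% against 8.86%, the YY1 motif AAGATGGC in 12% against 2.75%, the SP1 motif GGGCGGG in 34.9% against 25.6%, and the E box CACGTG in 7.23% against 7.15%. Windows of 3 nuclear members that fell together in rapamycin are printed, with matches to any of these motifs in capitals, because they differ in what they hold.
Sdhd, chr9:50603800-50604099, minus strand: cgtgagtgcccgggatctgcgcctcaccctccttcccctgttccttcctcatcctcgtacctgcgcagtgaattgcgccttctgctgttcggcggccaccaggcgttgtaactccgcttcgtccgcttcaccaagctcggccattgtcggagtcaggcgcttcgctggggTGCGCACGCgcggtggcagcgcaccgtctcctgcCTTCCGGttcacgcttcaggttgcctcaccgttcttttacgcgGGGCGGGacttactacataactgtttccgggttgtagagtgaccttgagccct
Ndufa8, chr2:36049289-36049588, minus strand: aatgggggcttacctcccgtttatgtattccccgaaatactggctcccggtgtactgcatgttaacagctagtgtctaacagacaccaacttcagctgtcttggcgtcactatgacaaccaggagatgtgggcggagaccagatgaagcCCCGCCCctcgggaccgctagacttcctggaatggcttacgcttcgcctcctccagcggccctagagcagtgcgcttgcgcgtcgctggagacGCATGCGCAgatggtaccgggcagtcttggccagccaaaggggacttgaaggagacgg
Ndufb3, chr1:58586147-58586446, plus strand: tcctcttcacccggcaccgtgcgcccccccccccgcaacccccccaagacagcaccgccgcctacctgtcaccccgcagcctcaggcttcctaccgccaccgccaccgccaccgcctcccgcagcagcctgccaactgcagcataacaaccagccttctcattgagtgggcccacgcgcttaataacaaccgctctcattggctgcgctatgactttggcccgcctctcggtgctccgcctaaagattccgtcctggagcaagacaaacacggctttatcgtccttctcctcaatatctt
The Sdhd window holds an NRF1, an ETS and an SP1 match, the Ndufa8 window an NRF1 and an SP1 match, and the Ndufb3 window none of the motifs searched. Other members that fell hold less: the Ndufa13 window has an SP1 match only, and those of Ndufa1 and Ndufb11 have none. Of 11 nuclear members with 1 annotated transcript and a window, 2 held TGCGCANGC, 2 the ETS, 4 the SP1 and 0 the YY1 motif. A match describes letters only; binding was not measured.

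Totals ran between 3465335 and 6775988 counted reads a library, and mitochondrially encoded members took between 5.9% and 11.6% of them. Reads were found for 12 of 12 fibroblast markers, whose summed level lay between 9220 and 13100 CPM, though Pdgfrb had only 35 reads. The 5 of 8 macrophage markers with reads summed to at most 26.1 CPM, and 5 of 7 epithelial and 5 of 6 endothelial ones to less. In these lists Adgre1, Itgam, Tyrobp, Epcam, Krt18 and Tie1 had no read, whereas Cd14 had 853, Lyz2 225 and Krt8 115. Summed fibroblast markers were lowest in the rapamycin libraries (9220 to 10100 CPM, against 11000 to 11700 with PDGF alone), and their part in the results was not tested. In such bulk samples fewer cells of a kind and less RNA per cell cannot be told apart. All changes below are log2 changes of TMM-scaled counts with their standard error, and a gene was called at a Benjamini-Hochberg adjusted p under 0.05 over the 10603 genes tested.

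Rapamycin with PDGF, set against PDGF alone in H2A-mCherry cells, addresses what mTORC1 activity contributes to the PDGF state. Most mitochondrially encoded RNAs tested rose while several nuclear ones fell. Of the 12 mitochondrially encoded members tested 8 were higher and none lower (none at an unadjusted p under 0.05 either, and DESeq2 and limma-voom called 7 higher and 0 lower). Of the 48 nuclear members 9 were lower and 3 higher. Of all genes tested 32.3% were called, 16.3% higher and 16.1% lower; the nuclear count of lower calls is near that background and the count of higher calls below it. The libraries of the groups did not overlap for 40.9% of all genes. The median change was 0.38 over the mitochondrially encoded members and 0.02 over all genes. Of the 7 less shared members 4 were higher, with a median of 0.28, and of the 5 shared ones, whose levels are uncertain, also 4, with a median of 0.79.

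mt-Nd2, a membrane subunit of complex I, had 10300, 12700 and 13400 CPM in the rapamycin libraries, against 7740, 8800 and 7860 CPM with PDGF alone. Every rapamycin library was above every PDGF library, and the change was 0.58 ± 0.09 (1.49-fold, adjusted p = 0.000108). mt-Nd4, another membrane subunit of complex I, had 9320, 9960 and 11100 CPM with rapamycin and 7280, 7890 and 7620 CPM without it. The groups again did not overlap (0.41 ± 0.05, adjusted p = 3.18e-09). mt-Co1, the catalytic subunit of cytochrome c oxidase and the member with the most reads, had 37800, 40400 and 43200 CPM with rapamycin, against 30700, 32600 and 32200 CPM without it. It was 1.27-fold higher (0.35 ± 0.05, adjusted p = 2.16e-08). mt-Cytb, the cytochrome b of complex III, had 17300, 17500 and 19500 CPM with rapamycin and 14300, 15800 and 15300 CPM without it (0.26 ± 0.05, adjusted p = 4.83e-05). These 4 kept their call under every alternative run.

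The other 3 less shared members, all of complex I, did not pass the test. mt-Nd1 had 12200, 13500 and 13900 CPM with rapamycin and 12000, 13200 and 12400 CPM without it, overlapping groups with a change of 0.07 ± 0.05 (adjusted p = 0.307). mt-Nd5 changed by 0.12 ± 0.07 (adjusted p = 0.235), and both mt-Nd1 and mt-Nd5 turned negative when libraries were scaled by their total reads alone, at -0.05 and -0.01. mt-Nd6, the one member transcribed from the other strand, had 1270 ± 163 CPM with rapamycin and 1040 ± 87.3 CPM without it (0.28 ± 0.12, adjusted p = 0.102). It was called in 5 of 25 alternatives, and mt-Nd1 and mt-Nd5 in 1 of 25 each. Among the 5 members shared with nuclear copies, mt-Nd4l changed by 1.52 ± 0.42, mt-Co3 by 0.79 ± 0.20, mt-Atp6 by 0.80 ± 0.25 and mt-Nd3 by 0.75 ± 0.30, all called, and mt-Co2 by 0.17 ± 0.20 (adjusted p = 0.596). The call of mt-Nd3 rested on an adjusted p of 0.0486 and was lost in 16 of 25 alternatives, with an adjusted p of up to 0.306, and that of mt-Atp6 in 6 of 25, with an adjusted p of up to 0.109. By total-read scaling, which moved the median of all genes to -0.10, 6 mitochondrially encoded members were called higher and none lower.

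**Figure D2:**
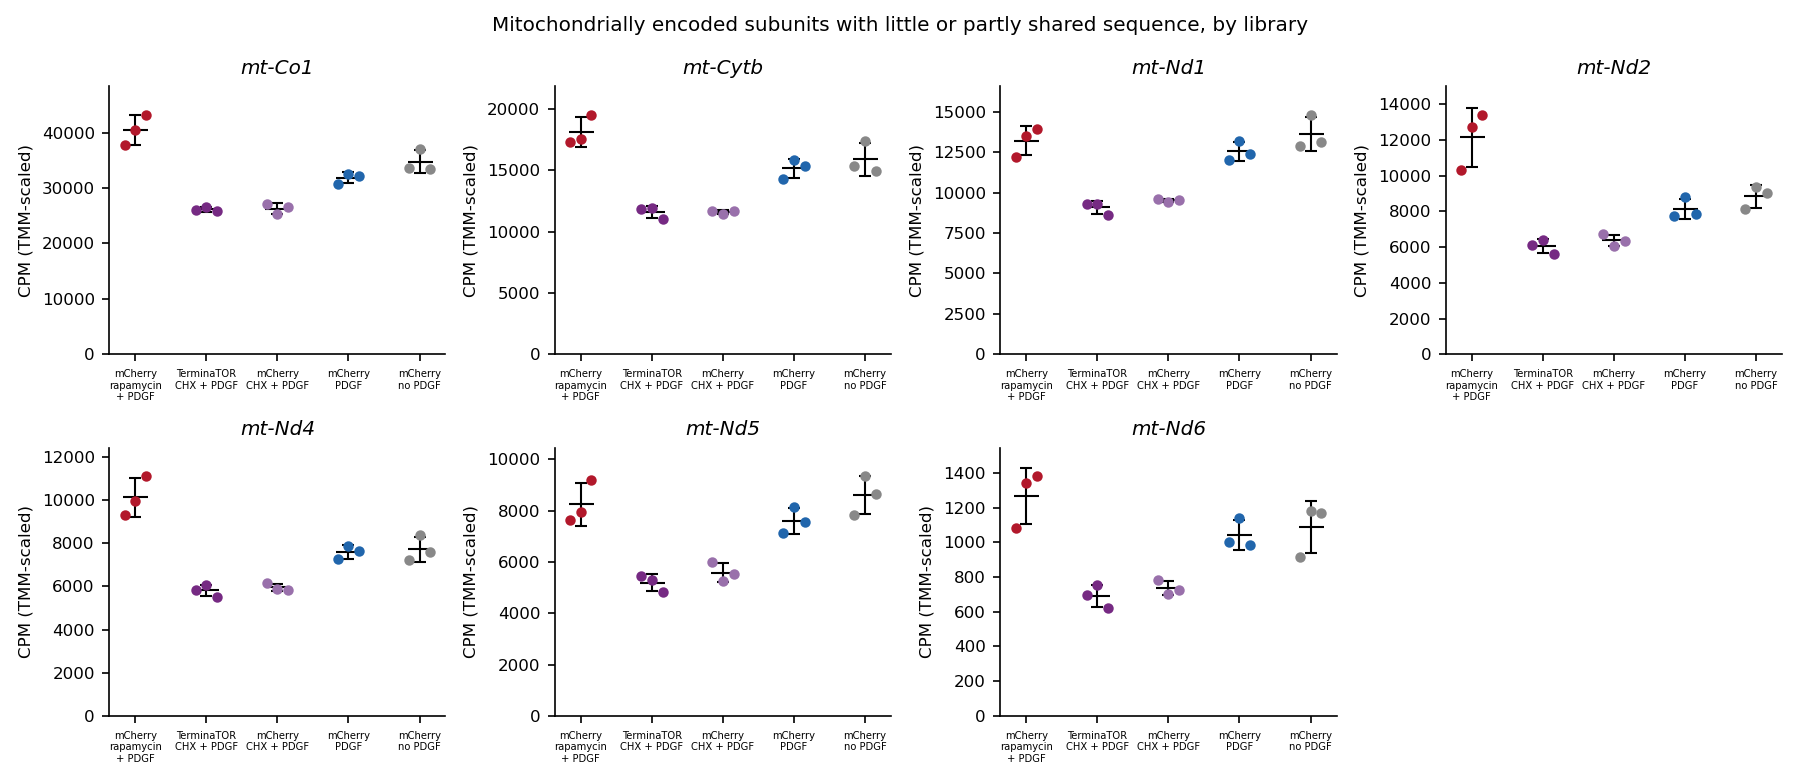
Levels of 7 mitochondrially encoded members in each library (CPM, TMM-scaled; points are libraries, the dash and bars are mean and SD, n = 3; CHX is cycloheximide). For mt-Nd2, mt-Nd4, mt-Co1 and mt-Cytb all 3 rapamycin libraries lie above all 3 PDGF libraries, and for all 7 members both cycloheximide groups lie lowest.

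Most of the falls among nuclear members were in those with 1 annotated transcript. This subset was chosen after seeing the data, so counts and medians over it, here and below, describe the pattern only. Of the 9 tested members with 1 annotated transcript, 7 were lower with rapamycin and none higher (none higher at an unadjusted p under 0.05, and DESeq2 and limma-voom gave the same counts of 7 and 0), with a median change of -0.57; of the 3085 tested genes with 1 annotated transcript 29.5% were called, 14.6% higher and 14.9% lower. Of the 39 tested members with several transcripts, 2 were lower and 3 higher, with a median of 0.08. The nuclear members with the most reads, Uqcrfs1, Sdhd and Ndufb11, all have 1 transcript, though the little-read Cox6a2 does too. The number of transcripts and the read depth therefore cannot be told apart in this contrast. The count of 7 was the same under each scaling tried and was 6 or 7 when any 1 library was left out.

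Sdhd had 103, 107 and 84.8 CPM with rapamycin, against 162, 155 and 158 CPM with PDGF alone. It was 1.62-fold lower (-0.69 ± 0.09, adjusted p = 5.14e-10). The other complex II members that were tested, Sdha (the flavoprotein, -0.15 ± 0.11) and Sdhb (the iron-sulfur subunit, 0.08 ± 0.24), did not pass the test. Sdhaf3, an assembly factor for the iron-sulfur subunit, had 5.63 ± 0.918 CPM with rapamycin and 9.68 ± 1.25 CPM without it (-0.78 ± 0.30, adjusted p = 0.0359), a call lost in 7 of 25 alternatives with an adjusted p of up to 0.136.

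Of the 17 tested supernumerary subunits of complex I, which surround its catalytic core, 6 were lower and 2 higher, with a median of -0.03, beside 16.1% lower and 16.3% higher among all genes. Ndufa1 had 37, 28 and 29.2 CPM with rapamycin, against 47.1, 49.9 and 53.9 CPM with PDGF alone (-0.68 ± 0.14, adjusted p = 7.84e-05). Ndufb3 had 24, 21.2 and 21.4 CPM with rapamycin, against 33.3, 37.2 and 34.4 CPM without it (-0.66 ± 0.15, adjusted p = 0.000351). Ndufa2 had 57.7, 51.4 and 32.3 CPM with rapamycin, against 63.6, 96.7 and 92.2 CPM without it (-0.86 ± 0.18, adjusted p = 0.00127). In all 3 genes the groups did not overlap, although for Ndufa2 one library of each group came close to the other. Ndufa8, a subunit of the intermembrane-space face, had 75.2, 89.8 and 92.9 CPM with rapamycin and 101, 118 and 120 CPM without it (-0.40 ± 0.10, adjusted p = 0.000582). Ndufa13, also known as GRIM-19, had 74.9, 110 and 89.5 CPM with rapamycin and 116, 130 and 117 CPM without it (-0.40 ± 0.10, adjusted p = 0.00094). Ndufb11 had 126, 134 and 107 CPM with rapamycin and 134, 165 and 157 CPM without it, groups that all but touched (-0.32 ± 0.09, adjusted p = 0.00332). Of these genes Ndufa13 shares 28.5% and Ndufb11 17.5% of its 50-base words with other genes, so their counts are less certain.

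Not every well-counted nuclear member fell. Uqcrfs1, the most deeply counted of them, had 210, 195 and 192 CPM with rapamycin and 213, 200 and 214 CPM without it, overlapping groups with a change of -0.07 ± 0.08 (adjusted p = 0.548). Ndufb9, a complex I gene with 2 transcripts and 2435 reads, had 41.2 ± 6.47 CPM with rapamycin and 33 ± 3.07 CPM without it. It was not called, and neither were Ndufab1 (1747 reads), Atp5l (1499) and Ndufb8 (1293). Cox6a2, the muscle-type form of a cytochrome c oxidase subunit, had only 257 reads. It stood at 3.46 ± 1.84 CPM with rapamycin and 5.31 ± 1.24 CPM without it (-0.57 ± 0.44, adjusted p = 0.353). The 3 members called higher were the supernumerary complex I genes Ndufa7 (1.48 ± 0.46) and Ndufb2 (1.02 ± 0.29) and the ATP synthase β subunit gene Atp5b (0.73 ± 0.23). They, and the ATP synthase δ subunit gene Atp5d, which fell (-1.31 ± 0.44, adjusted p = 0.0155), have several transcripts. In Atp5b 70.8% of reads lay on a retained-intron transcript and in Atp5d 54.8% on one annotated as a processed transcript; the call of Atp5d was lost in 3 of 25 alternatives, with an adjusted p of up to 0.304, that of Ndufa7 in 4 of 24, with an adjusted p of up to 0.113, and that of Atp5b in 2 of 24, with one of up to 0.1. Without replicate 2 of the rapamycin group 1 nuclear member was called higher in place of 3. In complexes III and IV 0 of 11 tested nuclear members were called by edgeR, DESeq2 or limma-voom (1 at an unadjusted p under 0.05).

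**Figure D3:**
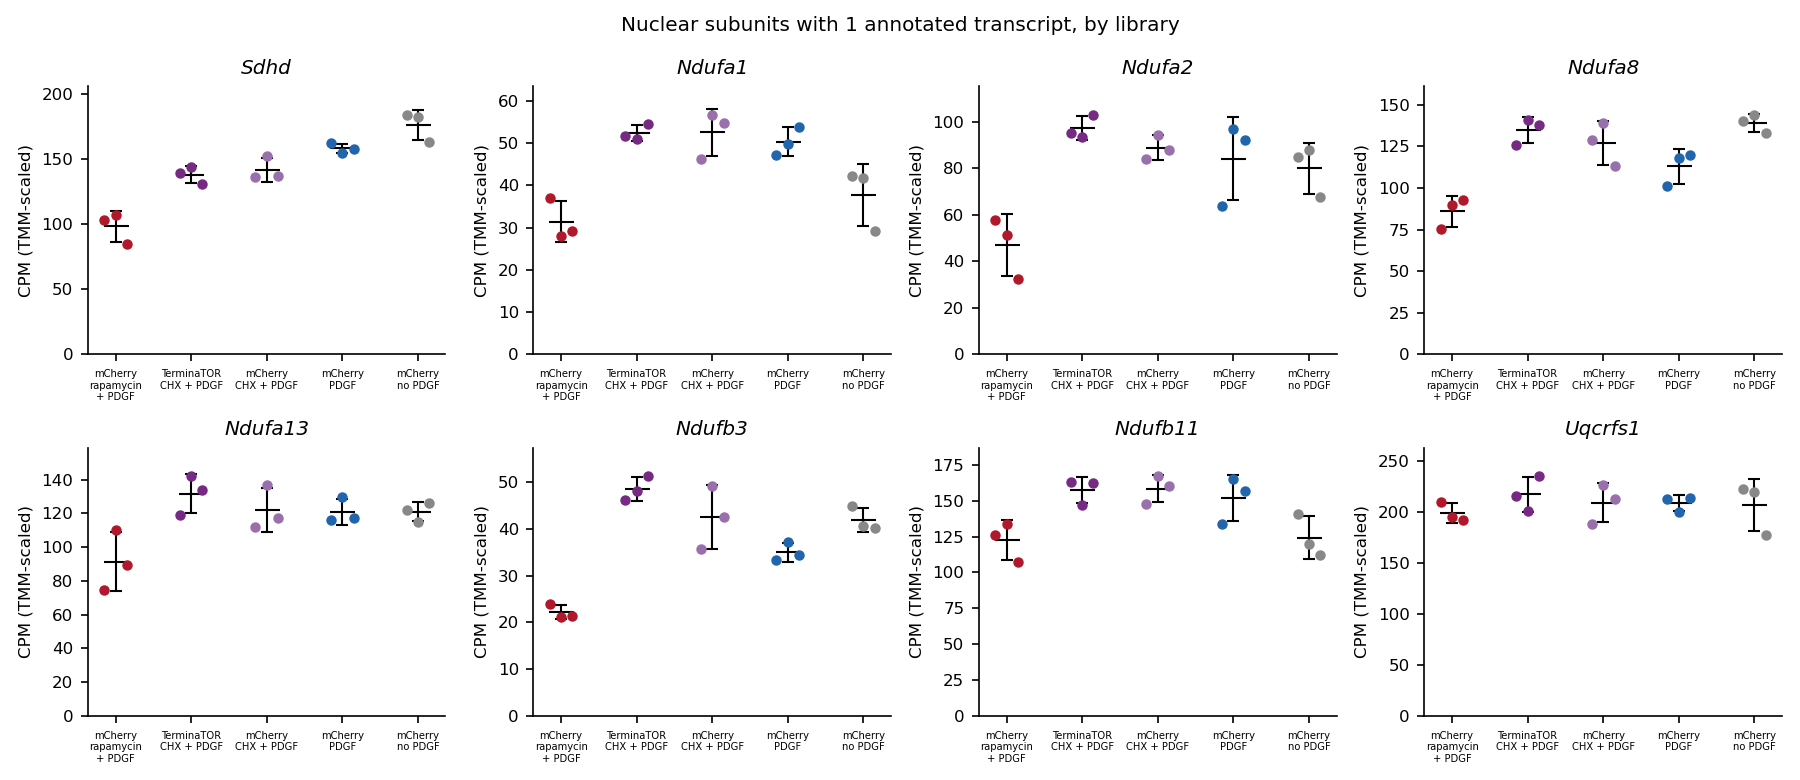
Levels of 8 nuclear members with 1 annotated transcript in each library (CPM, TMM-scaled; points are libraries, the dash and bars are mean and SD, n = 3; CHX is cycloheximide). In every panel but that of Uqcrfs1 the 3 rapamycin libraries lie below the 3 PDGF libraries. The tested member left out is Cox6a2, with 11, 6 and 23 reads with rapamycin and 24, 16 and 25 with PDGF alone.

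Summed reads were compared as shares of each library's total and as the ratio of mitochondrially encoded to nuclear reads, which needs no scaling between libraries. Mitochondrially encoded members took 9.65 ± 0.536% of reads with rapamycin and 8.54 ± 0.312% with PDGF alone, and nuclear members 0.0991 ± 0.00769% and 0.129 ± 0.00457% (SD, n = 3 each). The log2 ratio of mitochondrially encoded to nuclear reads was 6.49, 6.52 and 6.81 in the rapamycin libraries, against 6.05, 6.07 and 6.04 with PDGF alone. The rapamycin libraries lay above all others of the study, and the third of them stood highest. The difference of 0.55 was 0.45 to 0.61 when any 1 library was left out, and 0.71 when only the 7 less shared mitochondrially encoded members and the nuclear members with 1 transcript were summed. An exact two-sided permutation test of 3 against 3 libraries cannot go below p = 0.1, so the ratio is given without a p.

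**Figure D4:**
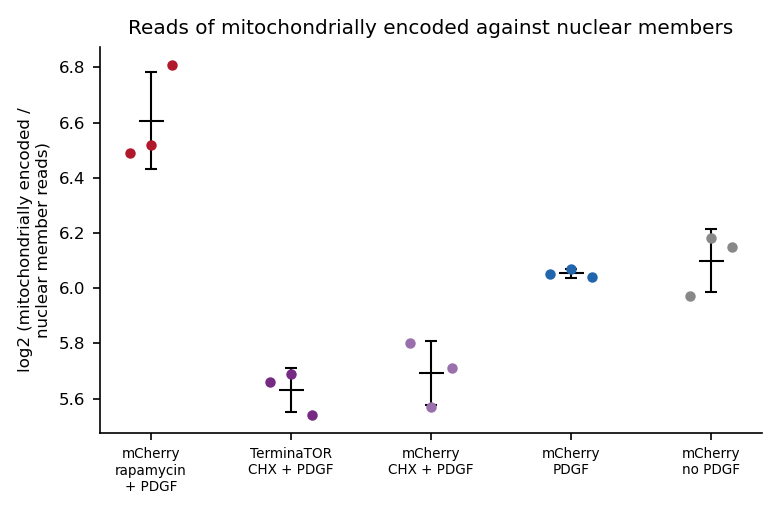
Log2 ratio of reads on mitochondrially encoded members to reads on nuclear members in each library (points; the dash and bars are mean and SD, n = 3; CHX is cycloheximide). The rapamycin libraries lie between 6.49 and 6.81, above all others, and both cycloheximide groups lie at 5.80 or below.

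Genes that run the mitochondrial genome and its nuclear partners were examined as lists fixed by function. Their counts stand beside 16.3% higher and 16.1% lower among all genes with rapamycin, and no list was tested against these shares. Of 20 tested genes of mitochondrial DNA transcription, replication and RNA processing, 4 were higher with rapamycin and 1 lower (median 0.27), and the one that fell was Mterf2 (-1.02 ± 0.39), with overlapping groups. The rises include Tfam, which packages mitochondrial DNA and starts its transcription, at 102 ± 11.7 CPM with rapamycin and 68.2 ± 2.1 CPM without it (0.58 ± 0.11, adjusted p = 3.02e-05), and Tfb2m, the transcription initiation factor that acts with it, at 30.2 ± 2.43 and 14 ± 1.8 CPM (1.11 ± 0.22, adjusted p = 4.36e-05). Of 13 regulators of mitochondrial biogenesis 2 were higher and 1 lower (median 0.33). The one that fell, Ppargc1a, which encodes PGC-1α, was at 3.76 ± 0.462 CPM with rapamycin and 23 ± 4.3 CPM without it, 6-fold lower (-2.59 ± 0.26, adjusted p = 1.47e-13). Of 25 respiratory chain assembly factors outside the symbol rule 1 was higher and 4 lower, among them Cox10 (-0.63 ± 0.15) and Cox15 (-0.67 ± 0.15), which make the heme A of cytochrome c oxidase, and the complex I factor Tmem126b (-0.74 ± 0.17). Of 22 genes of the TCA cycle and pyruvate dehydrogenase 1 was higher, Pdk4 (0.49 ± 0.07), a kinase that inactivates pyruvate dehydrogenase, and 3 were lower, with the pyruvate dehydrogenase subunits Pdhb (-0.94 ± 0.31) and Dlat (-0.55 ± 0.09) named here. Of 29 import and proteostasis genes 7 were higher and 3 lower, and of 16 genes of cytochrome c, coenzyme Q and carriers 0 were higher (0 at an unadjusted p under 0.05, nor by DESeq2 or limma-voom) and 1 lower, Coq10b (-0.42 ± 0.10). The medians of the last 4 lists lay between -0.13 and 0.13.

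Cycloheximide with PDGF was also set against PDGF alone, with the same PDGF libraries as reference, so this comparison and the preceding one are not independent. Here 7 of the 12 mitochondrially encoded members were lower and none higher (none higher at an unadjusted p under 0.05, nor by DESeq2 or limma-voom), with a median of -0.35; of all genes 40.6% were called, 21% higher and 19.6% lower, and for 50.6% the groups did not overlap. The 7 were the less shared members. mt-Nd1, which did not pass the test with rapamycin, had 9600, 9410 and 9550 CPM with cycloheximide, against 12000, 13200 and 12400 CPM with PDGF alone (-0.40 ± 0.05, adjusted p = 1.75e-09). mt-Co1 had 27100, 25300 and 26500 CPM with cycloheximide and 30700, 32600 and 32200 CPM without it (-0.27 ± 0.05, adjusted p = 3.84e-06). For both genes no library of one group reached the range of the other. The changes of mt-Nd2 (-0.35 ± 0.09), mt-Nd4 (-0.35 ± 0.05), mt-Cytb (-0.38 ± 0.05), mt-Nd5 (-0.44 ± 0.07) and mt-Nd6 (-0.50 ± 0.12) lay close together. All 7 calls held under every alternative run.

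The nuclear members as a group did not follow. Of 48 tested, 2 were higher and 4 lower, and of the 9 with 1 transcript none was called in either direction (none at an unadjusted p under 0.05, nor by DESeq2 or limma-voom), with a median of 0.05, where 20.5% of tested genes with 1 transcript were higher and 15.5% lower. Sdhd had 136, 152 and 137 CPM with cycloheximide and 162, 155 and 158 CPM without it (-0.16 ± 0.08, adjusted p = 0.116). The members called have several transcripts and few reads: the rises were Ndufa7 (1.48 ± 0.45) and Ndufb2 (1.19 ± 0.28), and the falls Atp5d (-2.47 ± 0.48), the ATP synthase coupling factor gene Atp5j (-1.44 ± 0.35), Ndufs3 (-1.36 ± 0.51), a core subunit of complex I, and the complex IV subunit gene Cox6c (-1.21 ± 0.32). Of Cox6c reads 98.4% lay on a retained-intron transcript. The call of Ndufs3 was lost in 6 of 24 alternatives, with an adjusted p of up to 0.145, and that of Ndufa7 in 2 of 24, with one of up to 0.0593. Without replicate 1 or 2 of the PDGF group 1 nuclear member was called higher in place of 2, and without replicate 2 or 3 of the cycloheximide group 1 member with 1 transcript was called lower. The log2 ratio of mitochondrially encoded to nuclear reads was 5.80, 5.57 and 5.71 with cycloheximide, below the 6.05, 6.07 and 6.04 with PDGF alone. The share of reads on mitochondrially encoded members was 6.12 ± 0.191% with cycloheximide and 8.54 ± 0.312% without it.

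With cycloheximide 21% of all genes were higher and 19.6% lower, and no supporting list was tested against these shares. In the supporting lists, 1 of 20 genes of mitochondrial DNA expression was higher with cycloheximide and 7 lower (median -0.26). The one that rose, Polg2, the accessory subunit of the mitochondrial DNA polymerase, had 36.1 ± 1.85 CPM with cycloheximide and 2.4 ± 0.74 CPM without it (3.88 ± 0.27, adjusted p = 2.02e-20), and 63.4% of its reads lay on a transcript annotated for nonsense-mediated decay. Of the 13 biogenesis regulators 2 were higher and 3 lower, including Pprc1, a PGC-1 related coactivator, at 0.567 ± 0.0587 CPM with cycloheximide and 5.7 ± 2.26 CPM without it (-3.28 ± 0.57), with 95.7% of its reads on a processed transcript. Of the 29 import and proteostasis genes 3 were higher and 11 lower, including Lonp1 (-2.86 ± 0.26), a mitochondrial protease, all of whose reads lay on a transcript annotated for nonsense-mediated decay. The assembly factors outside the rule had 8 higher and 3 lower of 25, the TCA cycle list 3 and 6 of 22, and the cytochrome c and coenzyme Q list 3 and 2 of 16.

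TerminaTOR was set against mCherry with cycloheximide and PDGF in both, which addresses the part of nuclear mTORC1 while new protein synthesis is blocked. The groups come from different stable lines, so the inhibitor and other differences between the lines cannot be told apart. Few of the respiratory chain genes were called, as of all genes. None of the 12 mitochondrially encoded members was called in either direction (none at an unadjusted p under 0.05, and none by DESeq2 or limma-voom), and of 48 nuclear members 0 were higher (1 at an unadjusted p under 0.05, none by DESeq2 or limma-voom) and 1 lower, where 4.92% of all genes were called, 2.35% higher and 2.57% lower. The groups did not overlap for 23.7% of all genes. mt-Co1 had 26100, 26600 and 25800 CPM in TerminaTOR cells and 27100, 25300 and 26500 CPM in mCherry cells (-0.01 ± 0.05, adjusted p = 0.966). The 7 less shared members had values between -0.10 and -0.01. The 5 shared ones lay between 0.09 (mt-Nd3) and 0.59 (mt-Nd4l), with mt-Co3 at 0.43 ± 0.21, mt-Atp6 at 0.42 ± 0.25 and mt-Co2 at 0.29 ± 0.21.

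The nuclear members with 1 transcript were likewise uncalled (none at an unadjusted p under 0.05, nor by DESeq2 or limma-voom), with a median of 0.09, where 2.24% of tested genes with 1 transcript were higher and 2.56% lower. Sdhd had 139, 144 and 131 CPM in TerminaTOR cells and 136, 152 and 137 CPM in mCherry cells (-0.03 ± 0.08, adjusted p = 0.894). Ndufb3 had 46.1, 48 and 51.2 CPM in TerminaTOR cells and 35.6, 49.2 and 42.6 CPM in mCherry cells (0.19 ± 0.13, adjusted p = 0.52). The one call was Ndufb5, a membrane-arm subunit of complex I, at 1.56, 0.786 and 1.22 CPM in TerminaTOR cells, against 2.9, 2.77 and 4.8 CPM in mCherry cells (-1.52 ± 0.45, adjusted p = 0.0288). The groups did not overlap, but the gene had few reads, 49% of them on a retained-intron transcript, and the call was lost in 8 of 25 alternatives, with an adjusted p of up to 0.307, among them each of the 3 fits without a TerminaTOR library and that without replicate 3 of the mCherry group. The log2 ratio of mitochondrially encoded to nuclear reads was 5.66, 5.69 and 5.54 in TerminaTOR cells and 5.80, 5.57 and 5.71 in mCherry cells, overlapping ranges.

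A few partner genes did pass the test with TerminaTOR, where 4.92% of all genes were called, 2.35% higher and 2.57% lower. No list was tested against these shares. Ppargc1a was lower, at 15.2 ± 0.351 CPM in TerminaTOR cells and 25.4 ± 5.94 CPM in mCherry cells (-0.74 ± 0.20, adjusted p = 0.0124), and Yy1, the factor that works with it, was 1.18-fold higher (0.24 ± 0.06, adjusted p = 0.00489). These were the 2 called of 13 biogenesis regulators. Cs, the citrate synthase gene, had 1250 ± 22.4 CPM in TerminaTOR cells and 1110 ± 47.3 CPM in mCherry cells (0.17 ± 0.05, adjusted p = 0.048) and was the 1 call of 22 in the TCA cycle list. Polg2 was the 1 call of 20 for mitochondrial DNA expression (-0.67 ± 0.20) and Timm17a, a subunit of the inner-membrane translocase, the 1 of 29 for import (0.49 ± 0.15). In the lists of assembly factors outside the rule and of cytochrome c and coenzyme Q none was called by edgeR, DESeq2 or limma-voom (1 each at an unadjusted p under 0.05).

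**Figure D5:**
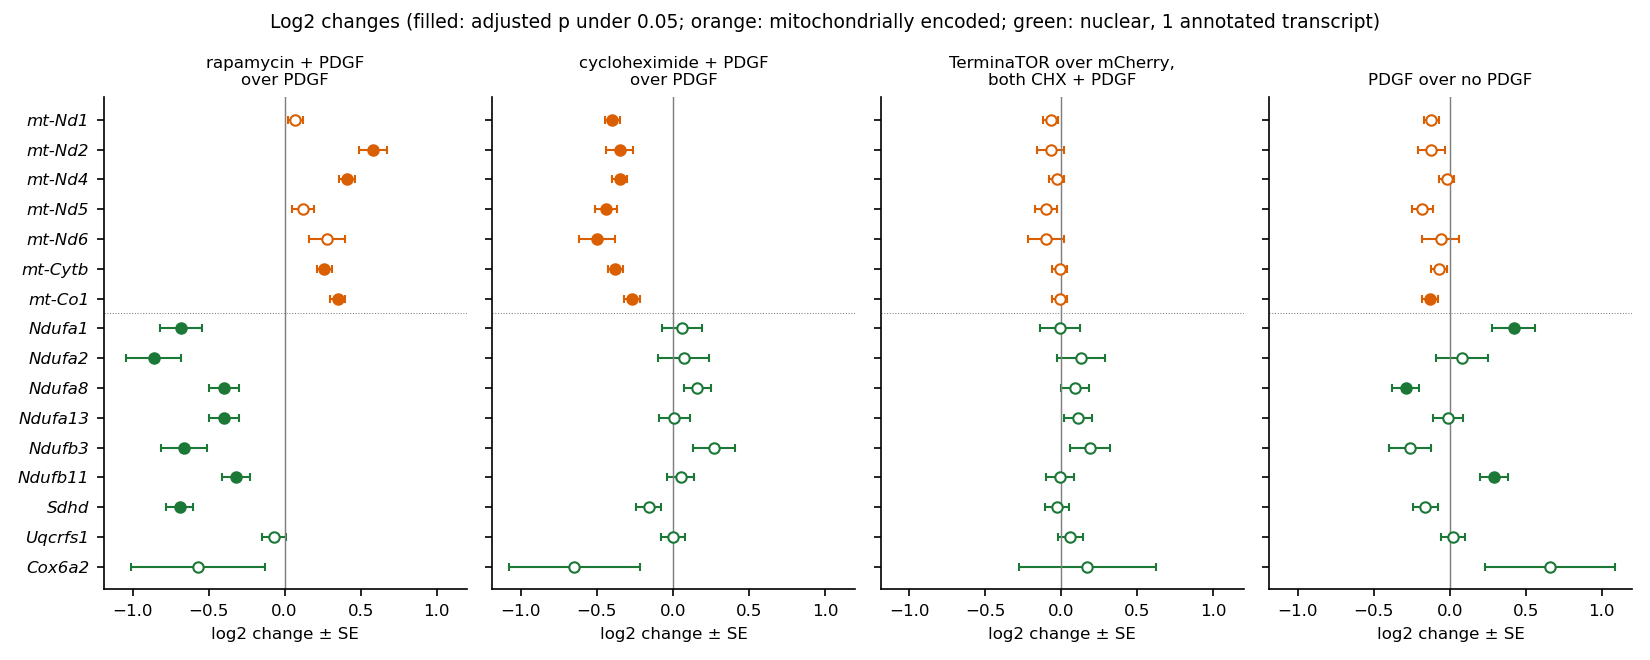
Log2 changes with standard errors of 7 mitochondrially encoded members (orange, above the dotted line) and 9 nuclear members with 1 annotated transcript (green) in the 4 comparisons; filled points had an adjusted p under 0.05. With rapamycin the orange points lie right of 0 and the green ones left of it; with cycloheximide only the orange points are filled, and with TerminaTOR no point is. CHX is cycloheximide, and the rapamycin, cycloheximide and PDGF panels share the PDGF libraries.

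The change with rapamycin and that with TerminaTOR were compared directly, as the difference between the 2 log2 changes. Of all genes 24% differed, 11.6% with a higher and 12.4% with a lower value for rapamycin. Among the mitochondrially encoded members 4 of 12 were higher for rapamycin and 0 lower (none lower at an unadjusted p under 0.05, nor by DESeq2 or limma-voom): mt-Nd2 by 0.65 ± 0.13, mt-Nd4 by 0.45 ± 0.08, mt-Co1 by 0.35 ± 0.07 and mt-Cytb by 0.27 ± 0.07. The call of mt-Cytb was lost in 3 of 25 alternatives, with an adjusted p of up to 0.252. Among the nuclear members with 1 transcript 6 of 9 were lower for rapamycin, with a median of -0.66, where 9.76% of tested genes with 1 transcript were higher and 11.4% lower. Sdhd differed by -0.66 ± 0.12 (adjusted p = 1.06e-05), Ndufb3 by -0.85 ± 0.20 (adjusted p = 0.000749) and Ndufa2 by -0.98 ± 0.24 (adjusted p = 0.00614). Rapamycin was measured without cycloheximide and TerminaTOR with it, so the inhibitor and the presence of cycloheximide cannot be told apart in this difference. The rapamycin change also lies within the H2A-mCherry line, whereas the TerminaTOR change is between different stable lines, which cannot be told apart from the inhibitor either.

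PDGF against no PDGF in H2A-mCherry cells gives the response that the inhibitors act on. It left most members uncalled: 1 of 12 mitochondrially encoded members was lower and none higher (none higher at an unadjusted p under 0.05, nor by DESeq2 or limma-voom), and of 48 nuclear members 3 were higher and 6 lower, where 37% of all genes were called, 20.1% higher and 16.9% lower, and for 46.2% the groups did not overlap. mt-Co1 had 30700, 32600 and 32200 CPM with PDGF and 33600, 37100 and 33400 CPM without it (-0.13 ± 0.05, adjusted p = 0.0382), a call lost in 17 of 25 alternatives, with an adjusted p of up to 0.422. Without 1 library the mitochondrially encoded count ran between 0 and 3, at 3 without replicate 1 of the group without PDGF and 0 without any of several others. This comparison depends on the scaling more than the others do. By total reads alone the median of all genes was -0.26, the share of calls that were higher was 30.7% in place of 54.3%, 7 mitochondrially encoded and 19 nuclear members were called lower, and 1 nuclear member higher. The share of reads on mitochondrially encoded members was 8.54 ± 0.312% with PDGF and 10.9 ± 0.548% without it, and that on nuclear members 0.129 ± 0.00457% and 0.159 ± 0.00879%, so the log2 ratio between them differed by -0.05 only.

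Under TMM scaling, Ndufa1 had 47.1, 49.9 and 53.9 CPM with PDGF and 42.3, 41.7 and 29.2 CPM without it (0.42 ± 0.14, adjusted p = 0.00986), and Ndufb11 changed by 0.29 ± 0.09 (adjusted p = 0.0057); neither was called by total-read scaling, at 0.17 and 0.04, and each call was lost in 3 of 25 alternatives. Of tested genes with 1 transcript 17.7% were higher and 13.1% lower. Ndufa8 had 101, 118 and 120 CPM with PDGF and 140, 144 and 133 CPM without it (-0.29 ± 0.09, adjusted p = 0.00627). These groups did not overlap, except those of Ndufb11. Ndufab1, the mitochondrial acyl carrier protein, was at 24.2 ± 0.83 CPM with PDGF and 38.2 ± 2.96 CPM without it (-0.66 ± 0.17, adjusted p = 0.000832). The other calls have fewer reads: Atp5d rose by 2.05 ± 0.45, and Ndufv3 (-2.55 ± 0.66), Ndufb7 (-1.32 ± 0.54), Atp5g2 (-1.21 ± 0.43) and Ndufb2 (-0.76 ± 0.28) fell. The call of Ndufb7 had an adjusted p of 0.0491 and was lost in 10 of 24 alternatives (up to 0.151), that of Ndufb2 in 4 of 25 (up to 0.114) and that of Atp5g2 in 2 of 25 (up to 0.166). Without the library of replicate 1 with PDGF 3 nuclear members were called lower in place of 6, and without replicate 3 of the group without PDGF 1 was called higher in place of 3.

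The supporting lists stand beside 20.1% higher and 16.9% lower among all genes with PDGF, and none was tested against these shares. Of 13 biogenesis regulators 5 were higher with PDGF and none lower (none at an unadjusted p under 0.05, nor by DESeq2 or limma-voom). The rises include Pprc1 (2.56 ± 0.52), Myc (1.90 ± 0.44) and Ppard (1.60 ± 0.08), while Ppargc1a stood at 23 ± 4.3 CPM with PDGF and 21 ± 2.99 CPM without it. Cytochrome c, the electron carrier between complexes III and IV, is encoded by Cycs, which had 12.9 ± 4.31 CPM with PDGF and 3.7 ± 1.08 CPM without it (1.78 ± 0.28, adjusted p = 1.90e-07). It belongs to a list in which 3 of 16 were higher and 1 lower, with Coq10b (2.04 ± 0.11), a coenzyme Q binding protein, the largest change. Of 25 assembly factors outside the rule 1 was higher and 7 lower, including Tmem126b (-1.05 ± 0.14), Acad9 (-0.88 ± 0.24) and Cox15 (-0.85 ± 0.13). The counts were 10 higher and 4 lower of 29 for import and proteostasis, 5 and 2 of 20 for mitochondrial DNA expression, and 4 and 2 of 22 for the TCA cycle.

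Paralogue sets in which each gene had at least 30 reads were the ATP synthase c-ring genes Atp5g1, Atp5g2 and Atp5g3, with 36, 244 and 585 reads, and the complex IV genes Cox7a1, Cox7a2 and Cox7a2l, with 39, 36 and 41. Of these Atp5g1 and the 3 Cox7a genes had too few reads to be tested. Atp5g2, named above, fell with PDGF, and Atp5g3 had 10.4 ± 3.25 CPM with PDGF and 9.11 ± 2.08 CPM without it (0.17 ± 0.28, adjusted p = 0.674); whether the paralogues differ in response was not tested. Of Atp5g1 words 56.2% also occur in the pseudogene Gm10039, which had 2672 reads, so reads of that gene may lie elsewhere.

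Across the 5 group means, the tested genes outside mitochondrial DNA whose pattern was most like the mean pattern of the mitochondrially encoded members were Gnb4 (r = 0.999), 5830448L01Rik, Gm37108, Gm5619 and Gm2238 (r = 0.998 each). With 5 points that share libraries these values describe the pattern only. Gnb4, a G protein β subunit gene, had a mean of 45.4 CPM with rapamycin, 15.4 CPM in TerminaTOR and 13 CPM in mCherry cells with cycloheximide, 21.8 CPM with PDGF and 23.5 CPM without it.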

How the data were processed

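RNA of 15 libraries was measured by poly(A)-selected RNA sequencing, with 3 libraries in each of 5 groups taken from the labels. The deposited files hold whole-number read counts per transcript, not normalized. Per the submitters' processing notes, HISAT2 2.2.1, HTSeq 0.9.1 and R 4.1.0 were used with the build hg38, which is a human assembly although the identifiers are mouse; the sources used here name no mouse build or annotation. Of 142446 transcript identifiers 141536 matched GENCODE M21 (GRCm38), and the 910 others, with 0.0309% of counts, were set aside.

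Transcript counts were added up within each gene. The main test was edgeR 4.0.16 (quasi-likelihood, TMM scaling, filterByExpr, robust, 1 fit over all 15 libraries, 10 residual degrees of freedom) in R 4.3.3, with Benjamini-Hochberg adjustment over 10603 genes; limma 3.58.1, DESeq2 1.42.0, other scalings, filters and transcript choices and leaving out each library were alternatives. The script was tested on simulated data. CPM values use the TMM-scaled library sizes. Library totals limit precision as given with the results. Replicate pairs differed beyond sampling noise, and none was treated as a duplicate.

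Named genes were the 13 mitochondrially encoded members, for each role list and comparison up to 3 called members in each direction with an average log2 CPM of at least 1, and up to 3 called genes per supporting list, of which a selection is printed. Members called with 1 annotated transcript and Ppargc1a, Myc or Gnb4 values outside their own comparison were added for description. The members, lists and tests were chosen with earlier results of these data known.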

Additional observations from a re-analysis of the deposited data

Results flagged for a closer look

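The following genes had a change with rapamycin that differed from their change with TerminaTOR, by the test of the difference itself (edgeR, adjusted p under 0.05; log2, rapamycin minus TerminaTOR); rapamycin was measured without and TerminaTOR with cycloheximide, which cannot be told apart from the inhibitor. The TerminaTOR change is also one between different stable lines, which cannot be told apart from the inhibitor either. Among mitochondrially encoded members the difference was 0.65 for mt-Nd2, 0.45 for mt-Nd4, 0.35 for mt-Co1 and 0.27 for mt-Cytb. Among nuclear members with 1 annotated transcript it was -0.98 for Ndufa2, -0.85 for Ndufb3, -0.67 for Ndufa1, -0.66 for Sdhd, -0.51 for Ndufa13 and -0.48 for Ndufa8. Among members with fewer reads or several transcripts it was 2.55 for Ndufa7, 1.56 for Ndufb5, 1.47 for Ndufb2, -1.64 for Sdhaf4 and -2.65 for Atp5d; the call of Ndufb5 was lost in 12 and that of Sdhaf4 in 9 of 25 alternatives.

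In the lists around the chain, positive differences were found for Phb2 (1.45), Tfb2m (1.20), Tmem186 (0.97), Ppard (0.94), Nrip1 (0.77), Chchd4 (0.70) and Trmt10c (0.52). Negative differences were found for Ppargc1a (-1.85), Pdhb (-1.38), Cycs (-0.93), Tomm20 (-0.67), Cox10 (-0.65), Cox15 (-0.65), Dlat (-0.55), Coq10b (-0.35) and Cs (-0.33). Ppargc1a fell in both comparisons, by 2.59 with rapamycin and by 0.74 with TerminaTOR.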

How the results depend on the processing

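No result changed direction while called. With rapamycin, nuclear members called higher were 1 when each transcript was tested as deposited (1 to 4 when 1 library was left out), against 3; the mitochondrially encoded count was 6 by total-read scaling and 11 with protein-coding transcripts only, against 8. With PDGF, total-read scaling gave 1 nuclear member higher, 19 lower and 7 mitochondrially encoded members lower, and among nuclear members with 1 transcript 0 higher and 5 lower, in place of 2 and 1. The single mitochondrially encoded call with PDGF became 2 with scaling without mitochondrial genes, 3 with transcripts as deposited and 0 with the DESeq2 test, limma-voom or protein-coding transcripts only. With cycloheximide, nuclear members called lower were 7 by total-read scaling and 2 with protein-coding transcripts only, where 1 was higher, and 1 nuclear member with 1 transcript was lower under each of these settings and in a fit of only the groups compared. With TerminaTOR the nuclear call was 0 with limma-voom, no filter or protein-coding transcripts only, and 2 in a fit of only the groups compared. For the difference between rapamycin and TerminaTOR 7 mitochondrially encoded members were higher with protein-coding transcripts only, in place of 4. The log2 ratio difference with rapamycin was 0.71 over less shared members, an alternative chosen after seeing the data, as were the counts over members with 1 transcript. The cause of these shifts was not tested.

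Leaving out 1 library at a time gave, with PDGF, 1 to 3 nuclear members higher, 3 to 6 lower and 0 to 3 mitochondrially encoded members lower, and 0 to 2 higher and 0 to 1 lower among those with 1 transcript. With cycloheximide it gave 1 to 2 nuclear members higher and 0 to 1 lower among those with 1 transcript, and with TerminaTOR 0 to 1 nuclear members lower. Total-read scaling moved the median of all genes to -0.26 with PDGF, -0.13 with cycloheximide, -0.10 with rapamycin and 0.03 with TerminaTOR, and the share of calls that were higher to 30.7%, 39%, 35.7% and 60.5%, against 54.3%, 51.8%, 50.3% and 47.7%. The replicate block left every count of calls as it was, for example 8 and 9 with rapamycin. Same-numbered libraries correlated by at most 0.08 in their deviations. Each rapamycin library correlated best with the same-numbered PDGF library, though only at 0.04, 0.04 and 0.00. Values this small do not settle whether the numbers pair the libraries. Members with few transcript-specific reads limit what these files can show.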
